A study of Mus musculus with 8 samples.

Results

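A set of 44 mouse genes that copy DNA and open S phase was followed in basal cells of stretched, phorbol ester treated and untreated back skin. The genes were listed by function, and 43 of the 44 were found among the 17097 genes that a probe set with a single gene symbol represented on the array. Chaf1a was not analysed here. Where a gene had several such probe sets, the one with the highest mean over the 8 arrays was read.

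Cells came from CD1 mice, an outbred strain, with 1 Affymetrix array per mouse. The expanded group (EXPD4, 3 mice) underwent tissue expansion by mechanical force, and its cells were collected on day 4. The skin of the TPA group (2 mice) had received 12-O-tetradecanoylphorbol-13-acetate, a phorbol ester and tumour promoter. The control group (CTRL, 3 mice) was untreated. Age, sex, and the dose and duration of TPA are not given in the sources used here. For each array 300 living cells were sorted as positive for integrin ITGA6 and negative for CD34, so that interfollicular and infundibulum cells were taken in and bulge cells left out. Values are log2 signals of RMA, a method that summarises the probes of a gene and normalises between arrays. They are given array by array in the order of the replicate numbers, and differences are log2 differences ± SE.

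The basal keratin genes Krt5 and Krt14 averaged 13.29 and 13.28 on the expanded arrays, 13.33 and 13.30 on the TPA arrays, and 13.28 and 13.30 on the control arrays, and did not pass in any comparison. Itga6, the gene of the sorted integrin, averaged 11.80 on the expanded, 11.58 on the TPA and 12.27 on the control arrays, and Cd34 lay under the background limit described below on all arrays. Arrays of a group correlated across genes at r = 0.990 to 0.995, and arrays of different groups at r = 0.962 to 0.987. The arrays are named by their labels because genes known for induction by phorbol ester or wounding ran against them. Odc1, ornithine decarboxylase, averaged 9.84 on the expanded arrays, 8.99 on the arrays labelled TPA and 11.34 on the control arrays. Krt6a averaged 13.14, 12.54 and 13.23 on the same groups, and Krt16 averaged 12.90, 12.15 and 13.04. All 3 genes were lower in TPA than in control arrays by limma (adjusted p = 2.4e-06 for Odc1, 0.000672 for Krt6a and 6.57e-05 for Krt16). Every direction below follows the labels, and would turn in the comparison of TPA with control if those labels had been exchanged, while the other comparisons would trade places. Markers of differentiated keratinocytes also moved with the groups. The summed linear signal of 7 such markers was 23510 to 25386 on the expanded arrays, 21779 to 23619 on the TPA arrays, and 10863 to 15258 on the control arrays. Of these markers Krt1, Krt10 and Krtdap were higher in both treated groups. Ivl and Sbsn did not pass, with differences from control of -0.33 and 0.19 on the expanded and -0.48 and 0.31 on the TPA arrays, and Lor and Flg lay under the limit on all arrays. The sum of 6 Langerhans cell markers was 896 to 1070, 1187 to 1330 and 1466 to 2173 on the expanded, TPA and control arrays. Cd207 and Itgax lay under the limit on every array. H2-Ab1 was lower than control in both treated groups and Epcam in expanded arrays alone (-1.04), while Cd74 and H2-Aa did not pass. The sum of 5 T cell markers was 1323 to 1388, 1362 to 1522 and 660 to 835 on the same groups. Cd3e, Cd3d and Cd3g lay under the limit on every array. Thy1 was the marker that passed there (1.23 in expanded and 1.33 in TPA minus control), while Cd8a was at -0.03 and -0.04. That of 5 bulge markers was 1410 to 1797, 2849 to 3128 and 1052 to 1338, with Cd34, Lgr5 and Lhx2 under it and Krt15 as the marker that passed. That of 7 macrophage and neutrophil markers was 514 to 538 on the expanded, 506 to 512 on the TPA and 561 to 995 on the control arrays, with Adgre1, Itgam and Cxcr2 under the limit and Cd14 lower in both treated groups. That of 6 fibroblast markers was 451 to 493, 637 to 738 and 404 to 526, with Col1a2, Pdgfra and Lum under it. Dcn was higher in TPA than in control arrays (1.69), while Col1a1 and Col3a1 did not pass (-0.68 and -0.10). The sum of 5 Merkel cell markers was 378 to 389, 348 to 372 and 413 to 419 on the expanded, TPA and control arrays. Krt8, Krt20 and Atoh1 lay under the limit, and Krt18 was lower in both treated groups. The sum of 5 endothelial markers was 481 to 796, 372 to 410 and 421 to 1709, and none of them passed. That of 6 pigment cell markers was 514 to 577, 597 to 635 and 422 to 809, with Dct, Tyr and Mitf under the limit. Cdh5, an endothelial marker, was at 9.73, 7.02 and 6.86 on the control arrays. Pecam1, Lyz2 and Col1a1 were also highest on control replicate 1 within that group, while Cd74, H2-Ab1 and Tyrp1 were highest on replicate 3. The part of these cells in the results below was not tested.

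DNA replication begins with licensing, in which the origin recognition complex, CDC6 and CDT1 load the ring of MCM2 to MCM7 onto origins in G1. At the start of S phase, kinases and CDC45 with the GINS complex turn that ring into the active helicase, and polymerases, the clamp PCNA and its loader follow. Many of these genes are transcribed at the border of G1 and S by E2F factors, and in the epidermis it is mainly the basal layer that divides. In sorted bulk cells, fewer cells in S phase and less RNA per such cell cannot be told apart.

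The promoters of 5 members are shown because these genes passed the test in at least 1 comparison and illustrate how the E2F word is placed. Each window runs from 250 bases before to 50 bases after the start of the gene in RefSeq, build GRCm38.p6, and is written 5′ to 3′ on the gene's own strand. They lie at chr12:24708004-24708303 (Rrm2, + strand), chr8:75109259-75109558 (Mcm5, + strand), chr1:20820263-20820562 (Mcm3, - strand), chr1:128359656-128359955 (Mcm6, - strand) and chr8:122567765-122568064 (Cdt1, + strand). Capitals mark the E2F words TTTCCCGC, TTTCGCGC, TTTGCCGC and TTTGGCGC, and the CCAAT word, on either strand.
Rrm2: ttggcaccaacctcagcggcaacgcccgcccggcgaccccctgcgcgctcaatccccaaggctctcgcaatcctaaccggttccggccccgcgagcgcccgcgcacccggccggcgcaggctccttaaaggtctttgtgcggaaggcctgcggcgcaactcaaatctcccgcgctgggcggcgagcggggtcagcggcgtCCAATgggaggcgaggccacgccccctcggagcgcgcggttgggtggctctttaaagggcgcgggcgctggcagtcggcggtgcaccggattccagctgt
Mcm5: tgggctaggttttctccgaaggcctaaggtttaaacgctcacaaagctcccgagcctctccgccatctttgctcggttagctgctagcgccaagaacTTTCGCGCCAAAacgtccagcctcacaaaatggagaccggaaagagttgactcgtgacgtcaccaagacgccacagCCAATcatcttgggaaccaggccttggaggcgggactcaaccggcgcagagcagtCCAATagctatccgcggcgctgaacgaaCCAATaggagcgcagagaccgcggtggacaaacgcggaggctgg
Mcm3: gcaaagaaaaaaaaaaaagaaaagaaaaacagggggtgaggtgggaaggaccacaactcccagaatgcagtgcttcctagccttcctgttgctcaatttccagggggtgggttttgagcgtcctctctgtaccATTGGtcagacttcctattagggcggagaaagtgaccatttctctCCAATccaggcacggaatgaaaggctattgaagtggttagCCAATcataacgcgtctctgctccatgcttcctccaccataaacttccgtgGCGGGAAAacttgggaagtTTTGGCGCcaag
Mcm6: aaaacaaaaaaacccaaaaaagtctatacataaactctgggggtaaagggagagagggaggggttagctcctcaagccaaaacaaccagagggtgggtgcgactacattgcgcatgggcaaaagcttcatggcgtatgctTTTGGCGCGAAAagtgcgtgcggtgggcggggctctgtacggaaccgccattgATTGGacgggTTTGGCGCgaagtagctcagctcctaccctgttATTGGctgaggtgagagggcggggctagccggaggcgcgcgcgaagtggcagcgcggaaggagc
Cdt1: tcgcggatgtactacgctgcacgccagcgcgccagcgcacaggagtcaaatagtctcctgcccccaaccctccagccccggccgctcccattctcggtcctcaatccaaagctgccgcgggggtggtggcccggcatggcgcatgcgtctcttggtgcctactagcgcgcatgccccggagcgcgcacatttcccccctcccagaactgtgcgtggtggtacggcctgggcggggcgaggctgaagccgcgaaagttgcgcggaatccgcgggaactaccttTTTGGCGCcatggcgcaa
The Mcm6 window held 3 E2F words, the Mcm5 and Mcm3 windows 2 each, and the Cdt1 window 1, while the Rrm2 window held a CCAAT word and no E2F word. In Mcm5 and Mcm6, 2 of these words overlap on opposite strands. A window was found for 35 of the 43 measured members, and 13 of the 35 (37.1%) held an E2F word, against 3.78% of 13514 genes on the array and 2.6% of all 27025 genes with a window. The 13 were Orc1, Cdc6, Cdt1, Mcm3, Mcm5, Mcm6, Mcm7, Gins3, Pola1, Pold1, Rfc3, Lig1 and Uhrf1. A CCAAT word, on either strand, stood in 19 of the 35 (54.3%), against 42.3% of genes on the array, and the GC box word GGGCGG in 27 (77.1%), against 57.4%. Of 19 E2F words in the members' windows, 1 overlapped a CCAAT word and 0 overlapped a GC box. The word TATAAA, on the gene's strand, was in 0 of 35, against 7.69%. These matches describe letters only. Members with and without the E2F word had median differences of -0.20 (n = 13) and -0.14 (n = 22) between TPA and control.

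No detection calls were used here. Instead, the 95th percentile of 79 genes for receptors of odours, pheromones and trace amines was taken on every array (6.37 to 6.55) and served as a background limit. Of the members, Orc1, Cdc6, Fen1 and Ccne2 lay under it on all 8 arrays, and the other 39 lay above it on all 8. For the 4 dim genes no fold is given.

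**Figure D1:**
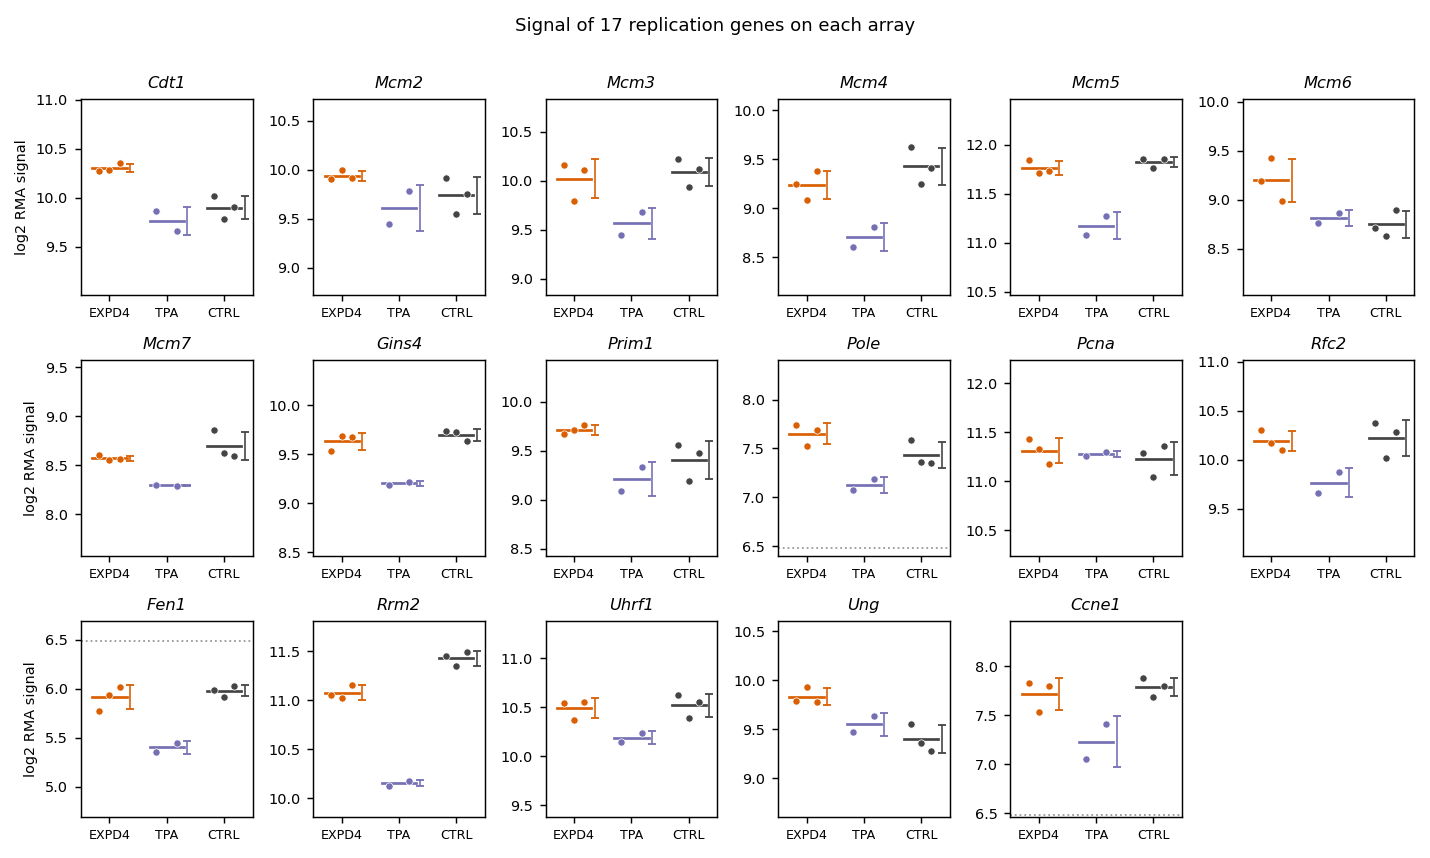
Log2 RMA signal (vertical axis) of 17 members in the EXPD4, TPA and CTRL groups. Points are arrays, horizontal lines group means and bars SD (n = 3, 2 and 3); the dotted line is the mean background limit, and each panel has its own vertical range of at least 2 log2 units. Rrm2 falls to 10.15 in TPA against 11.43 in CTRL, and Pcna stays near 11.3 in all 3 groups.

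Taken across the arrays, replication genes tended to be lowest in the TPA arrays. The TPA group had the lowest mean for 32 of 43 members, against 45.3% of all genes, and the expanded group had the highest for 25, against 30% of all genes. The order expanded, control, TPA from high to low was found for 18 members (41.9%, against 16.7% of all genes), and the order control, expanded, TPA for 14 (32.6%, against 28.7%). Relative to each gene's control mean, the median over the members was 0.09, 0.01 and 0.05 on the expanded arrays, -0.29 and -0.15 on the TPA arrays, and 0.08, -0.10 and 0.03 on the control arrays. The expanded and control arrays thus overlapped, and both TPA arrays lay below them, TPA replicate 2 at -0.15 against -0.10 for control replicate 2. The same median over all genes stayed between -0.04 and 0.02. For the members, the median deviation from each group's own mean had a pooled SD over arrays of 0.08. Within the control group, replicate 2 was the lowest array for 33 of the 43 members, against 29% of all genes. Replicate 1 was the highest for 26, for which no share of all genes was taken. The pooled SD within groups had a median of 0.14 for the members and 0.12 for all genes. It was smallest for Pola1 (0.06) and largest for Gins1 (0.39), a GINS subunit with signals of 9.12, 9.10 and 9.11 on the expanded arrays, 7.61 and 8.67 on the TPA arrays, and 9.09, 8.61 and 9.23 on the control arrays. Gins1 did not pass in any comparison, though without TPA replicate 2 it was lower in TPA than in control (-1.36, adjusted p = 0.00426) and lower in TPA than in expanded arrays. It is named after its values were seen.

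**Figure D2:**
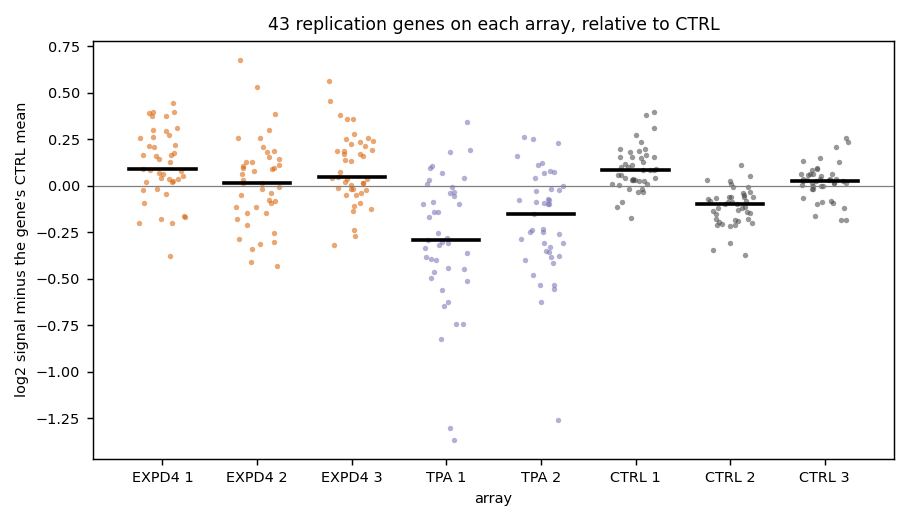
Log2 signal of each of the 43 members minus that gene's mean over the CTRL arrays (vertical axis), on each of the 8 arrays (horizontal axis). Points are genes and black lines medians, which are -0.29 and -0.15 on the 2 TPA arrays and lie between -0.10 and 0.09 on the other 6.

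Phorbol ester treated skin was set against untreated skin. Replication genes were lower in the TPA arrays wherever they passed the test. Of 43 measured members 10 were lower and 0 higher (15 and 0 at an unadjusted p under 0.05), which is 23.3% of them. Of all genes 20.8% passed, 10.6% lower and 10.2% higher. Among genes with any group mean above the mean background limit, tested by themselves, 9 of 39 members were lower and 0 higher. Of all 10974 such genes, 1810 were lower and 1762 higher. The 10 were Mcm3, Mcm4, Mcm5, Mcm7, Gins4, Rfc2, Fen1, Rrm2, Uhrf1 and Ccne1. The sign was negative for 34 members, against 56% of all genes, and the median was -0.20, against -0.03 over all genes. The TPA and control arrays did not overlap for 15 members that were lower (background 25.4%) and 1 that was higher (background 20.4%). Calls are those of limma at an adjusted p of 0.05 over all 17097 genes.

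Among the licensing genes the MCM ring stood out in number, with 4 of its 6 subunits lower. Mcm5 was at 11.84, 11.71 and 11.73 on the expanded arrays, 11.08 and 11.27 on the TPA arrays, and 11.85, 11.76 and 11.86 on the control arrays. Both TPA arrays lay below all others, and the difference between TPA and control was -0.65 ± 0.09 (adjusted p = 0.00105), or 1.57-fold. With the mean of both Mcm5 probe sets, of which the other lay under the background limit, it was -0.31 (adjusted p = 0.0147). Mcm4 was at 9.25, 9.09 and 9.38 on the expanded, 8.60 and 8.81 on the TPA, and 9.63, 9.25 and 9.41 on the control arrays. Again both TPA arrays were the lowest, with a difference of -0.72 ± 0.13 (adjusted p = 0.00516), or 1.65-fold.

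Mcm3 was at 10.16, 9.79 and 10.11 on the expanded, 9.45 and 9.68 on the TPA, and 10.22, 9.94 and 10.12 on the control arrays (-0.53 ± 0.14 for TPA minus control, adjusted p = 0.0261). Mcm7 was at 8.60, 8.55 and 8.56 on the expanded, 8.30 and 8.29 on the TPA, and 8.86, 8.62 and 8.59 on the control arrays (-0.40 ± 0.09, adjusted p = 0.016). For both, in these probe sets, the TPA arrays lay below all arrays of the other groups. A second probe set of Mcm7, above the background limit on all 8 arrays, did not pass (-0.29). It was at 8.15 and 8.04 on the TPA and 8.74, 8.30 and 8.12 on the control arrays, so that the groups overlapped. The other ring subunits did not pass: Mcm2 was at 9.90, 10.00 and 9.91 on the expanded, 9.45 and 9.78 on the TPA, and 9.92, 9.55 and 9.76 on the control arrays, and the TPA and control arrays overlapped (-0.13 ± 0.13, 95% interval -0.43 to 0.17). Mcm6, with 0.07 ± 0.13 (interval -0.24 to 0.37), is described with the expanded arrays below. Of the loaders, Orc6 of the origin recognition complex (-0.19 ± 0.10) and Cdt1 (-0.14 ± 0.10) did not pass.

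Among genes that turn the loaded ring into a helicase, 1 of 7 was lower. It was Gins4, a GINS subunit, at 9.53, 9.68 and 9.68 on the expanded, 9.19 and 9.22 on the TPA, and 9.74, 9.72 and 9.63 on the control arrays. Both TPA arrays lay below the rest (-0.50 ± 0.08, adjusted p = 0.0028, 1.41-fold). The other 6 did not pass, with differences between -0.84 for Gins1 and 0.13 for Gins3. They also include Gins2, Cdc45, the kinase gene Cdc7, and Mcm10, which helps to start the helicase.

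Of the clamp, clamp loader and single-strand binding genes, 1 of 6 was lower. Pcna, the sliding clamp that holds polymerases on DNA, was at 11.43, 11.32 and 11.18 on the expanded, 11.26 and 11.30 on the TPA, and 11.29, 11.04 and 11.36 on the control arrays. The groups overlapped, and the difference was 0.05 ± 0.11 (adjusted p = 0.821, interval -0.21 to 0.31). Rfc2, a subunit of the loader, was at 10.30, 10.17 and 10.10 on the expanded, 9.66 and 9.87 on the TPA, and 10.37, 10.02 and 10.28 on the control arrays (-0.46 ± 0.12, adjusted p = 0.0304). Its TPA arrays were lowest, while the loader subunits Rfc3, Rfc4 and Rfc5 and the single-strand binding gene Rpa2 did not pass (-0.08 to 0.11). None of the 6 polymerase and primase genes (Pola1 and Pola2 of polymerase alpha, Prim1 and Prim2 of primase, Pold1 and Pole) passed in this comparison, with differences from -0.39 to 0.09 and the lowest adjusted p at 0.0638, for Pold1, the catalytic subunit of polymerase delta.

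Nucleotide supply held the largest difference of all members. Rrm2, the small subunit of ribonucleotide reductase, which makes deoxyribonucleotides and is normally abundant in S phase, was at 11.05, 11.02 and 11.16 on the expanded, 10.13 and 10.17 on the TPA, and 11.45, 11.34 and 11.49 on the control arrays. No group overlapped another, and TPA was below control by 2.43-fold (-1.28 ± 0.08, adjusted p = 1.92e-05). Its partner Rrm1, the large subunit, was at -0.28 ± 0.10 (adjusted p = 0.0762). Thymidylate synthase (Tyms, -0.29 ± 0.14), thymidine kinase (Tk1, -0.10 ± 0.08) and the dUTPase gene Dut (0.16 ± 0.15) did not pass either.

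Of the remaining roles, Ccne1, which encodes cyclin E1, the CDK2 partner of the G1/S transition, was at 7.83, 7.54 and 7.80 on the expanded, 7.05 and 7.41 on the TPA, and 7.88, 7.69 and 7.80 on the control arrays. Both TPA arrays lay below the others (-0.56 ± 0.13, adjusted p = 0.0176), whereas E2f1, an activating E2F factor, was at 0.10 ± 0.11 (adjusted p = 0.575). Uhrf1, which directs maintenance methylation to newly copied DNA, was at 10.54, 10.37 and 10.56 on the expanded, 10.14 and 10.23 on the TPA, and 10.62, 10.39 and 10.55 on the control arrays. Its difference was -0.33 ± 0.10 (adjusted p = 0.0425). Fen1, the flap nuclease of Okazaki fragments, was at 5.78, 5.94 and 6.02 on the expanded, 5.35 and 5.45 on the TPA, and 5.99, 5.92 and 6.03 on the control arrays. The TPA arrays were the lowest (adjusted p = 0.0024), but all 8 values lay under the background limit. Lig1, the ligase that seals the fragments, did not pass (-0.26 ± 0.13). The uracil glycosylase gene Ung (0.15 ± 0.10), the histone mRNA binding gene Slbp (-0.06 ± 0.18) and the chromatin assembly gene Chaf1b (-0.23 ± 0.12) did not pass.

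**Figure D3:**
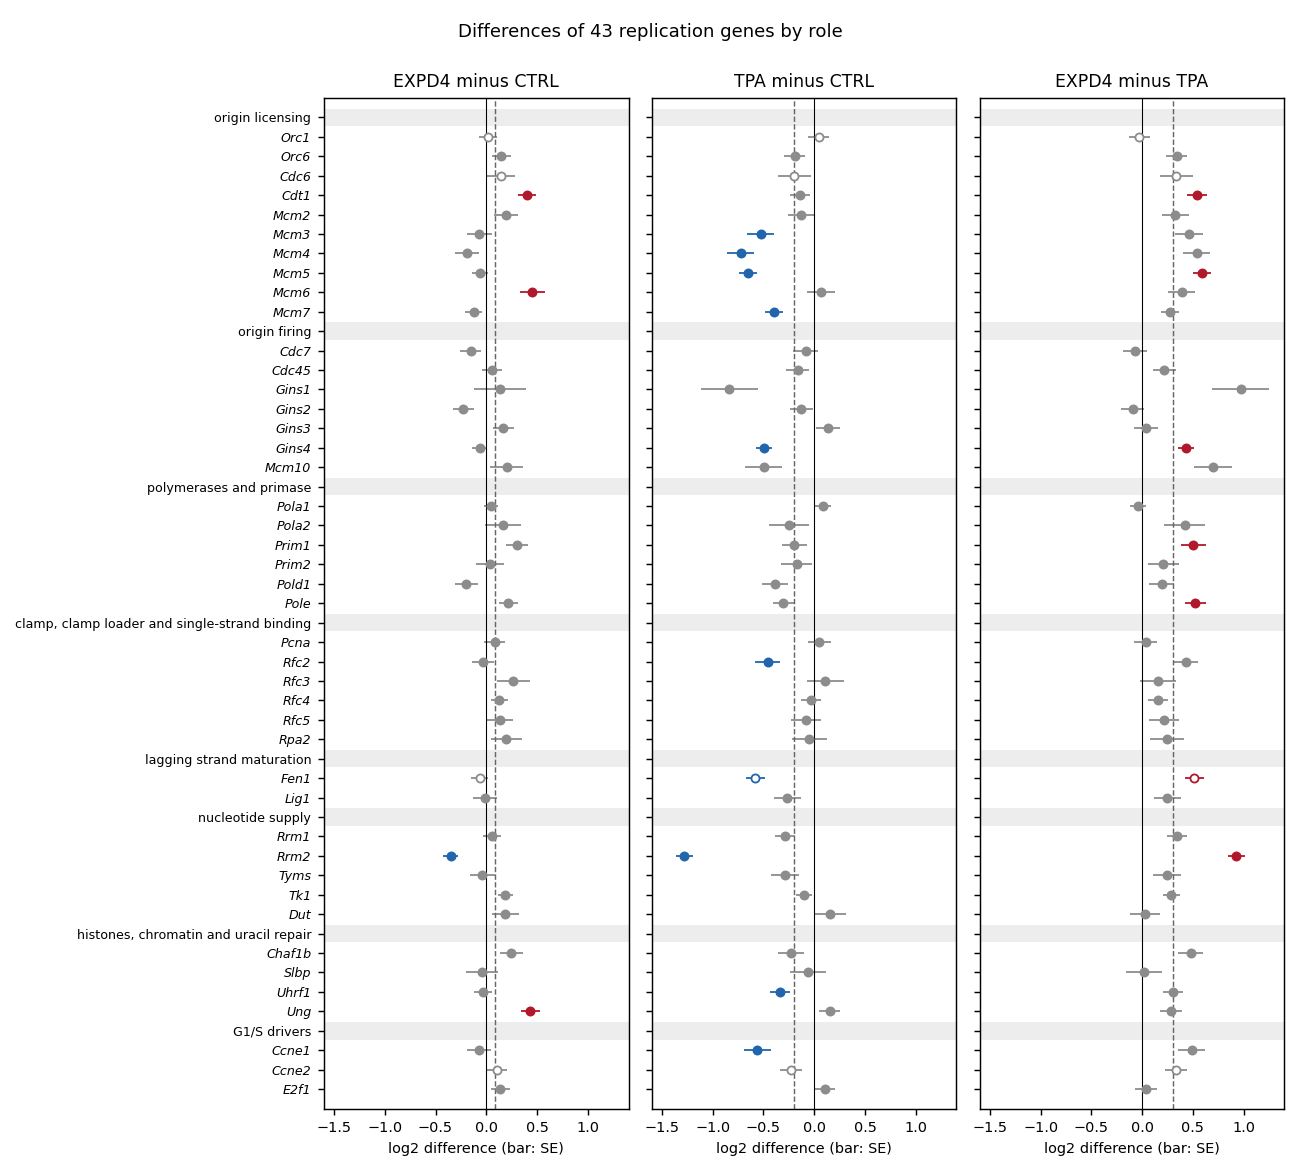
Log2 difference ± SE (horizontal axis) of each of the 43 members, by role, for EXPD4 minus CTRL, TPA minus CTRL and EXPD4 minus TPA. Red points were called higher and blue points lower, grey points were not called, open points lay under the background limit on all arrays, and dashed lines are the medians of 0.08, -0.20 and 0.30.

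The count of 10 depended on single arrays. It was 5 without TPA replicate 1, 6 without control replicate 1 and 6 without control replicate 3. Mcm4, Mcm5, Gins4, Fen1 and Rrm2 were called in every alternative that gave them a value, while Mcm3, Rfc2 and Ccne1 lost their calls without TPA replicate 1 or control replicate 1 or 3 (adjusted p up to 0.164, 0.183 and 0.125 over all alternatives). Mcm7 lost its call without either TPA array (adjusted p up to 0.0861), and Uhrf1 lost it without any TPA array, without expanded replicate 1 or 3, and without control replicate 1 or 3, with adjusted p up to 0.198. With 1 TPA array left, that array was assumed to vary like those of the other groups.

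Stretched skin was set against untreated skin. Few replication genes differed: of 43 measured members 3 were higher (Cdt1, Mcm6 and Ung) and 1 lower (Rrm2), or 9.3% beside a background of 11.5% of all genes. The background was 5.69% higher and 5.78% lower, against 6.98% and 2.33% of the members. Over both directions the members' share was no larger than that of all genes, while their share called higher lay just above background. Among genes with any group mean above the mean background limit, 3 of 39 members were higher and 1 lower. Of all 10974 such genes, 1044 were higher and 1024 lower. The median over the 43 members was 0.08, against 0.01 over all genes, and 27 members had a positive sign, against 51.6% of all genes. The expanded and control arrays did not overlap for 5 members that were higher (background 15.4%) and 2 that were lower (background 14.5%).

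Cdt1, the licensing factor that brings the MCM ring to origins, was at 10.27, 10.28 and 10.36 on the expanded, 9.86 and 9.66 on the TPA, and 10.02, 9.78 and 9.90 on the control arrays. All expanded arrays lay above all others, and the difference from control was 0.40 ± 0.09 (adjusted p = 0.019), or 1.32-fold. Mcm6, a ring subunit, was at 9.19, 9.42 and 8.98 on the expanded, 8.76 and 8.87 on the TPA, and 8.71, 8.63 and 8.90 on the control arrays. The expanded arrays were again the highest (0.45 ± 0.12, adjusted p = 0.0443, 1.37-fold). Ung, which removes uracil from DNA, was at 9.79, 9.93 and 9.78 on the expanded, 9.47 and 9.63 on the TPA, and 9.56, 9.36 and 9.28 on the control arrays (0.43 ± 0.09, adjusted p = 0.019, 1.35-fold).

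Rrm2 went the other way, with the expanded arrays between control and TPA and 1.28-fold lower than control (-0.35 ± 0.07, adjusted p = 0.0162). For the genes that were lower in TPA, the expanded arrays overlapped the control arrays, with -0.06 ± 0.08 for Mcm5 (interval -0.24 to 0.12), -0.07 ± 0.07 for Gins4 (interval -0.23 to 0.10) and -0.07 ± 0.12 for Ccne1 (interval -0.34 to 0.20). Mcm4 was at -0.19 ± 0.12 and Mcm3 at -0.07 ± 0.12. Pcna was at 0.08 ± 0.10 (interval -0.15 to 0.32) and Mcm2 at 0.20 ± 0.12.

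None of these calls was independent of the arrays chosen. The count of 4 was 0 without expanded replicate 2 or control replicate 3, and 1 without expanded replicate 1 or control replicate 2. Cdt1 lost its call without any 1 expanded array or control replicate 2 or 3 (adjusted p up to 0.0716), Mcm6 without any single array other than expanded replicate 3 (up to 0.146), Ung without expanded replicate 2 or control replicate 2 or 3 (up to 0.0711), and Rrm2 without expanded replicate 1 or 2 or control replicate 3 (up to 0.0629).

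Stretched skin was also set against phorbol ester treated skin, with the same expanded and TPA arrays as above. Here 7 members were higher in the expanded arrays and 0 lower (23 and 0 at an unadjusted p under 0.05), which is 16.3% of them. Of all genes 5.98% passed, 3.16% higher and 2.81% lower. The 7 were Cdt1, Mcm5, Gins4, Prim1, Pole, Fen1 and Rrm2. Among genes with any group mean above the mean background limit, 7 of 39 members were higher and 0 lower. Of all 10974 such genes, 596 were higher and 511 lower. The median over the members was 0.30, against 0.03 over all genes, and 39 of 43 had a positive sign, against 58.6% of all genes. The expanded arrays lay above both TPA arrays, with no overlap, for 25 members (background 21.8%), and below them for 1 (background 13.9%), which was Pola1, the catalytic subunit of polymerase alpha.

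Of the polymerase and primase genes, 2 passed. Prim1, the catalytic subunit of primase, which lays down the RNA primers, was at 9.67, 9.71 and 9.77 on the expanded, 9.09 and 9.33 on the TPA, and 9.56, 9.19 and 9.47 on the control arrays. Pole, the catalytic subunit of polymerase epsilon on the leading strand, was at 7.74, 7.53 and 7.69 on the expanded, 7.07 and 7.18 on the TPA, and 7.59, 7.36 and 7.35 on the control arrays. In both genes the expanded arrays lay above the TPA arrays, by 0.50 ± 0.12 for Prim1 (adjusted p = 0.0493) and 0.52 ± 0.10 for Pole (adjusted p = 0.0223).

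Rrm2 again had the largest called difference, 0.93 ± 0.08 (adjusted p = 0.000764), or 1.90-fold. Also higher were Mcm5 (0.59 ± 0.09, adjusted p = 0.00745, or 0.34 with the mean of its probe sets), Cdt1 (0.54 ± 0.10, adjusted p = 0.0154) and Gins4 (0.43 ± 0.08, adjusted p = 0.0187). For Fen1, under the background limit, the adjusted p was 0.0154. Near the threshold but not past it were Mcm4 (0.54 ± 0.13, adjusted p = 0.054) and Chaf1b (0.48 ± 0.12, adjusted p = 0.0651), and Pcna was at 0.03 ± 0.11 (interval -0.23 to 0.30).

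The count of 7 was 2 without expanded replicate 3 and 3 without TPA replicate 1. Rrm2 and Mcm5 kept their calls in all alternatives. Prim1 lost its call without any 1 of the expanded or TPA arrays or control replicate 3 (adjusted p up to 0.241), Pole without either TPA array or expanded replicate 1 or 3 (up to 0.119), Gins4 without either TPA array or expanded replicate 2 or 3 (up to 0.0922), Cdt1 without expanded replicate 3 or TPA replicate 2 (up to 0.0738), and Fen1 without expanded replicate 2 or 3 or TPA replicate 1 (up to 0.0897).

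**Figure D4:**
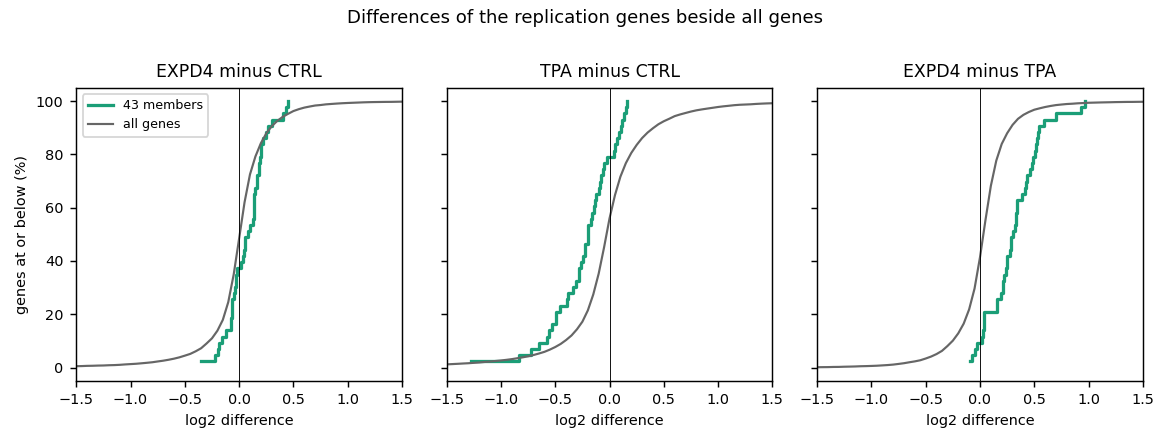
Percentage of genes (vertical axis) at or below a log2 difference (horizontal axis, shown from -1.5 to 1.5), for the 43 members (green steps) and all 17097 genes (grey line). The members' curve lies mostly left of the grey line for TPA minus CTRL and mostly right of it for EXPD4 minus TPA, with medians of -0.20 and 0.30 against -0.03 and 0.03.

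For 25 members the array held further probe sets, 33 in all, of which 25 lay above the background limit on some array. They were tested in a fit over all probe sets with a single symbol, and none was called opposite to the chosen probe set in any comparison. Between TPA and control 7 of the 25 were lower and 0 higher, against 2851 lower and 2965 higher of all 28898 probe sets in that fit. The 7 include the second probe set of Rrm2 (-1.58), which was also lower in expanded than in control arrays (-0.47). Others of Mcm3 (-0.36), Mcm2 (-0.32), Uhrf1 (-0.38) and Rfc2 (-0.57) were among them as well. The chosen probe set of Rfc2 and the one at -0.57 are both of the Affymetrix class that may bind other transcripts as well. The remaining probe set of Rfc2, outside that class, was at -0.25 and did not pass. For Mcm10 the chosen probe set did not pass (-0.50 ± 0.18, adjusted p = 0.0963), while both others were lower, by -0.68 and -0.86. Between expanded and control arrays, a second probe set of Slbp was higher (0.54), though the chosen one was at -0.04. The second probe set of Cdt1, above the limit on all 8 arrays, was at 0.29 there and did not pass. It was higher in expanded than in TPA arrays (0.69). The sign matched that of the chosen probe set for 15 of the 25 in expanded minus control and 16 in TPA minus control. In expanded minus TPA it matched for 23. These further probe sets are named after their values were seen.

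A second list held other replication and S phase genes, of which 41 of 51 were measured. Between TPA and control 8 were lower and 0 higher (background 10.6% and 10.2%), with a median of -0.05. Between expanded and control 0 were lower and 1 higher (background 5.78% and 5.69%). Between expanded and TPA 5 were higher and 0 lower (background 3.16% and 2.81%). Gmnn, the geminin gene, whose product holds CDT1 back once S phase has begun, was at 8.36, 8.68 and 8.91 on the expanded, 7.92 and 7.83 on the TPA, and 9.13, 8.67 and 8.77 on the control arrays. TPA minus control was -0.98 ± 0.18 (adjusted p = 0.0044), with no overlap. Wdhd1, which ties polymerase alpha to the helicase, was also lower in TPA (-0.51 ± 0.08, adjusted p = 0.00238), as were Ticrr, an origin firing factor (-0.65 ± 0.14, adjusted p = 0.0122), and Tfdp1, the DP1 partner of E2F factors (-0.44 ± 0.07, adjusted p = 0.00315). Samhd1, which breaks down deoxyribonucleotides, was lower as well (-0.63 ± 0.12, adjusted p = 0.00706). Dtl, part of the ligase that removes CDT1 in S phase, was the 1 gene higher in expanded arrays (0.32 ± 0.07, adjusted p = 0.0223). Ticrr lost its call without TPA replicate 1 and with the mean of its probe sets (-0.25, adjusted p = 0.0853), and Samhd1 without TPA replicate 2. Dtl lost its call without any 1 expanded array or control replicate 2 or 3, with a trended robust eBayes and with a replicate block (adjusted p up to 0.0818).

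Genes that control entry into S phase went in both directions. Of 24 measured cyclins, CDKs, inhibitors, pocket proteins and E2F factors, 6 were higher and 5 lower between TPA and control (45.8%, against 20.8% of all genes), 3 higher and 4 lower between expanded and control (29.2%, against 11.5%), and 2 higher and 1 lower between expanded and TPA (12.5%, against 5.98%). The atypical E2F genes E2f7 and E2f8, which encode repressors of E2F targets, were lower than control in both treated groups. E2f7 was at 7.10, 7.35 and 7.44 on the expanded, 5.66 and 5.35 on the TPA, and 8.39, 8.34 and 8.21 on the control arrays, so that no group overlapped another. Expanded minus control was -1.01 ± 0.12 (adjusted p = 0.00095). In TPA arrays it lay under the background limit and was lower than in control by at least 3.57-fold, a bound set against that limit (adjusted p = 4e-06).

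E2f8 showed the same order, with means of 8.44 ± 0.06 on the expanded (SD, n = 3), 7.99 ± 0.01 on the TPA (n = 2) and 9.10 ± 0.11 on the control arrays (n = 3). It differed from control by -1.12 ± 0.09 in TPA (adjusted p = 5.3e-05) and by -0.67 ± 0.08 in expanded arrays (adjusted p = 0.00102). Myc, a transcription factor that drives cell growth, ran the opposite way, with 11.09, 11.02 and 10.98 on the expanded, 11.38 and 11.46 on the TPA, and 10.40, 10.43 and 10.57 on the control arrays. It was higher than in control by 0.95 ± 0.08 in TPA (adjusted p = 9.48e-05) and by 0.56 ± 0.07 in expanded arrays (adjusted p = 0.00179). Cdkn1a, which encodes the CDK inhibitor p21, was lower than control in both (-0.41 ± 0.07 in TPA, adjusted p = 0.0043, and -0.47 ± 0.06 in expanded arrays, adjusted p = 0.00219). Cdk6, a G1 kinase, was lower in both as well (-0.50 ± 0.08 in TPA and -0.37 ± 0.08 in expanded arrays), and its call in expanded arrays was lost without expanded replicate 1 or 2 or control replicate 2 (adjusted p up to 0.0589). E2f4, an E2F factor that works with pocket proteins, was lower in TPA (-0.39 ± 0.08, adjusted p = 0.00745).

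**Figure D5:**
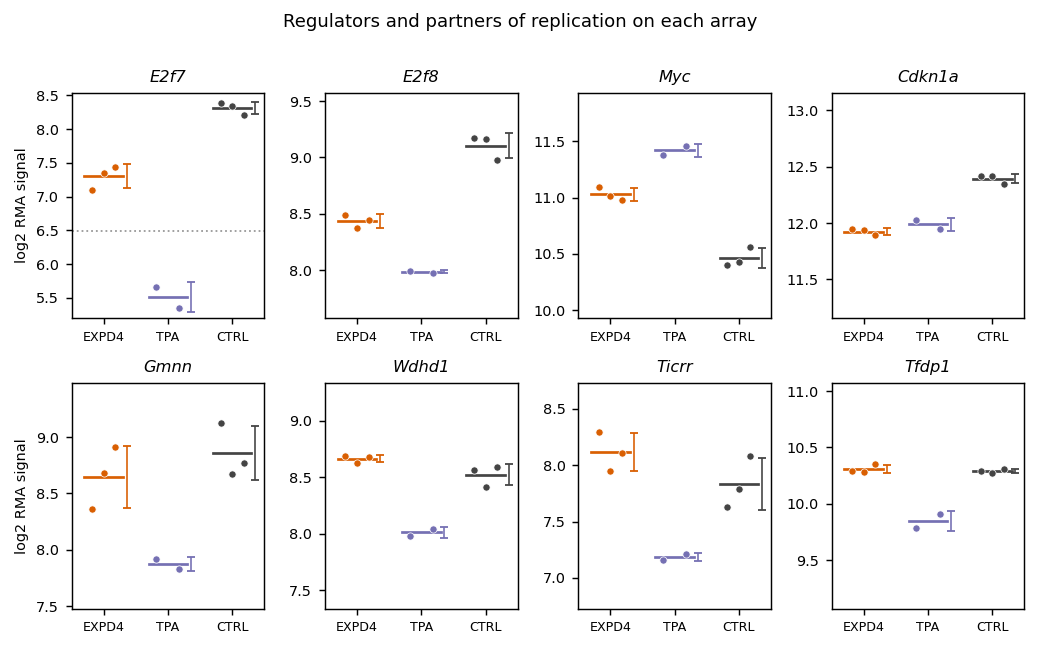
Log2 RMA signal (vertical axis) of 8 genes from the lists of replication partners and G1/S regulators in the EXPD4, TPA and CTRL groups. Points are arrays, lines means and bars SD (n = 3, 2 and 3), and the dotted line is the mean background limit. E2f7 and E2f8 are highest in CTRL and lowest in TPA, and Myc is the reverse.

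Of 20 measured mitosis genes, 11 were lower and 1 higher between TPA and control (background 10.6% lower and 10.2% higher). Their median was -0.51, with differences from -0.75 to 0.79. The lower ones include the spindle kinase genes Aurka (-0.67 ± 0.09) and Plk1 (-0.68 ± 0.12). The cyclin gene Ccnb2 (-0.75 ± 0.15), the genes Cdc20 (-0.60 ± 0.12) and Ube2c (-0.70 ± 0.14), which work in the ubiquitin ligase of mitotic exit, and the spindle gene Tpx2 (-0.64 ± 0.13) were lower too. Ccnb2 and Tpx2 lost their calls without TPA replicate 2 (adjusted p = 0.0511 and 0.057), and Ube2c without TPA replicate 1 (adjusted p = 0.0521). Between expanded and control 2 were lower and 0 higher (background 5.78% and 5.69%), with a median of -0.22. Between expanded and TPA 1 was higher and 0 lower (background 3.16% and 2.81%), which was Aurka, a call kept in 2 of 17 alternatives (adjusted p up to 0.195). Mki67, a marker of cycling cells, was at 10.48, 10.38 and 10.57 on the expanded, 10.33 and 10.32 on the TPA, and 10.55, 10.34 and 10.43 on the control arrays, and did not pass in any comparison.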

How the data were processed

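Basal epidermal cells of 8 mice were measured on 8 Affymetrix arrays, of 3 expanded, 2 TPA and 3 control mice. Per the labels' protocols, RNA of 300 sorted cells was amplified as cDNA and stopped after 25 cycles. The log2 values deposited by the authors are RMA signals, as the submitters' processing notes have it. Raw scans were not used here. Of 45141 probe sets, 28898 carried 1 gene symbol in the platform annotation of 2016, with symbols updated through Entrez gene identifiers, and gave 17097 genes. With limma 3.58.1 (R 4.3.3), lmFit and then eBayes, which added 3.54 prior to 5 residual degrees of freedom, fitted 1 coefficient per group over all arrays, with Benjamini-Hochberg adjustment over all genes and a threshold of 0.05, and was tested on simulated data. Promoter windows are RefSeq's.

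Replicates are separate mice, and their number limits the precision. The genes and lists were chosen with earlier results of these data known. Array values were named for members past the threshold in any comparison, the member with the smallest p of each role, and Pcna, Mcm2, Rrm2 and Ccne1. Up to 6 called genes with the smallest p were named from each other list, with the checks Krt5, Krt14, Krt6a, Krt16, Odc1 and Mki67. Alternatives were quantile normalization, median centring, a signal filter, probe set handling, a trended robust eBayes, array weights, fits of 2 groups, a replicate block and leaving out each array.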

Additional observations from a re-analysis of the deposited data

How the results depend on the processing

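Over 17 alternatives, which include leaving out each of the 8 arrays, none of the 60 calls recomputed (replication, G1/S and mitosis genes, Krt6a, Krt16 and Odc1) changed sign, and 32 were kept throughout. The calls of other cell type markers were not recomputed. The number of called members was 4, 10 and 7 (expanded against control, TPA against control, and expanded against TPA). It ranged from 0 to 4, from 5 to 12 and from 2 to 10 over the arrays left out, and was 12 in the last comparison with a trended robust eBayes. The members' median ranged from 0.04 to 0.12, from -0.29 to -0.13 and from 0.27 to 0.36 over the arrays left out, with -0.29 when TPA replicate 2 was left out. Called genes, 1960, 3559 and 1022 in the comparisons as reported, ranged from 1261 to 2076, from 2613 to 3344 and from 560 to 922 over the arrays left out. They were 2972 and 5816 probe sets for the comparisons with control when each probe set was tested by itself, which tests more features, and 511 between expanded and TPA when those groups alone were fitted. Deviations from the group mean of same-numbered arrays correlated at r = -0.18, 0.00 and 0.03 between expanded and control. They correlated at 0.03 and -0.02 between TPA and control, and at 0.01 and -0.07 between expanded and TPA. Deviations from the mean of so few arrays are tied to each other, so these values cannot show whether replicate numbers pair the arrays. With a replicate block, called genes were 1642, 2829 and 541, and called members 3, 7 and 4. With all arrays kept, called members lost their calls as follows: Uhrf1 and Prim1 with quantile normalization, median centring, array weights, the block and fits of the compared groups alone, Prim1 also among single probe sets, Mcm6 with quantile normalization, the block and fits of those groups alone, Rfc2 with array weights, the block and such fits, Mcm3 with array weights and the block, Cdt1 (against control) and Mcm7 with mean probe sets, Ccne1 and Pole with the block, and Gins4 and Fen1 (against TPA) with the block and such fits. The causes were not tested.

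Values that turned sign were all of genes not called in the comparison concerned. For expanded minus control they were 0.032 for Mcm5 and 0.047 for Mcm7 with mean probe sets, and 0.041 for Rfc2 and 0.022 for Uhrf1 with array weights. Over the arrays left out, expanded minus control ran from -0.15 to 0.044 for Mcm3, -0.010 to 0.15 for Pcna, -0.14 to 0.042 for Rfc2, -0.12 to 0.0021 for Fen1 (under the background limit, so that it is no measured size), -0.094 to 0.029 for Uhrf1, -0.13 to 0.021 for Ccne1, -0.0038 to 0.030 for Tfdp1 and -0.052 to 0.26 for Gins1. TPA minus control ran from -0.29 to 0.039 for Mcm2 and from -0.045 to 0.11 for Pcna, and expanded minus TPA from -0.027 to 0.10 for Pcna.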

Other observations

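A few G1/S regulators outside the naming rule passed the test and are given as values, chosen after they were seen. E2f2, an activating E2F gene, was at 8.85, 8.95 and 8.77 on the expanded arrays, 8.33 and 9.15 on the TPA arrays, and 8.02, 8.02 and 7.82 on the control arrays, so that both treated groups lay above control. Its difference from control was 0.90 ± 0.18 in expanded (adjusted p = 0.0143) and 0.78 ± 0.20 in TPA arrays (adjusted p = 0.0257). Cdkn2b, the gene of the CDK inhibitor p15, was higher in expanded than in control arrays (0.81 ± 0.19, adjusted p = 0.026). Cdkn1b, the gene of the CDK inhibitor p27 (0.72 ± 0.18, adjusted p = 0.0202), the cyclin gene Ccnd2 (0.46 ± 0.09, adjusted p = 0.00797) and the pocket protein gene Rbl2 (0.57 ± 0.15, adjusted p = 0.024) were higher in TPA than in control arrays, all by limma. These were not recomputed under the alternatives.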
